A study of Mus musculus with 11 samples.

Results

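This account follows 10 transcription factors of the mouse trophoblast lineage through 3 RNA libraries of embryonic stem cells: Tfap2c, Tead4, Esx1, Ascl2, Eomes, Gata2, Gata3, Hand1, Cdx2 and Elf5. They were taken by name, from their rows among the 25239 genes of the deposited count table, and all 10 were found there. The choice was made with earlier results of these data known. The libraries come from J1 embryonic stem cells with mutations of DNA methyltransferases, at day 0, with 1 library for each of the genotypes TKO_602, TKO_FL and TKO. The labels do not spell out FL and 602, nor say whether a line is a single clone. All 3 were grown on mitomycin C-treated mouse embryonic fibroblasts in medium with serum and LIF, so feeder RNA can be present. The series also has 8 samples in which methylated or hydroxymethylated DNA was pulled down from DNMT TKO or Dnmt3a/3b KO cells, and these were not analysed here.

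The trophoblast is the outer lineage of the early embryo and builds most of the placenta. Embryonic stem cells rarely enter it: a network of factors that trophoblast stem cells use to hold their state is kept shut in them, and DNA methylation of the Elf5 promoter is a known part of that barrier. Tead4, Cdx2, Gata3 and Eomes act early, when the trophectoderm is set aside, Tfap2c and Elf5 belong to the circuit of trophoblast stem cells, and Ascl2, Hand1, Esx1 and Gata2 serve later placental cell types.

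The genes assigned 43158441 reads in TKO_602, 19573689 in TKO_FL and 21133660 in TKO. Levels are given in CPM, the reads of a gene scaled to a common library total, with TMM factors, the usual correction for library composition. Each value has an exact 95% Poisson interval computed from reads divided by 2, because each mate of a pair was counted alone. With 1 library per genotype there is no replicate check of any difference here, no p-value is given, and the intervals cover counting error only. Values at or under 3 fragments, or 6 reads, are treated as a floor. It is the one-sided 95% limit of a count of 0, a little under the upper end of the interval, which is two-sided, and comes to 0.134 CPM in TKO_602, 0.312 CPM in TKO_FL and 0.290 CPM in TKO. Per the file headers, the TKO_602 reads were aligned in a folder of their own, so for that library a batch difference and the genotype cannot be told apart. Dnmt1, the maintenance methyltransferase, had 2444 CPM in TKO_602, 3364 CPM in TKO_FL and 159 CPM in TKO. Dnmt3a, a de novo methyltransferase, had 27.8, 36.1 and 35.2 CPM in the same order of libraries, and its relative Dnmt3b had 11.9, 34.0 and 71.7 CPM. Summed markers of the embryonic stem cell state (8 genes) were 4884 CPM in TKO_602, 5660 CPM in TKO_FL and 4862 CPM in TKO.

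Tfap2c and Esx1 stood out from the other members. Tfap2c was the most abundant in every library, and its level was highest in TKO_FL, lower in TKO_602 and lowest in TKO. Esx1 was highest in TKO_602, lower in TKO_FL and lowest in TKO. Tead4, Ascl2 and Eomes had their lowest level in TKO_FL and their highest in TKO_602, though the intervals of Eomes overlap in every pair. Gata2, Gata3 and Hand1 stayed low in all 3, also with their lowest CPM in TKO_FL. Cdx2 had few or no reads, and Elf5 was at or under the floor throughout.

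**Figure D1:**
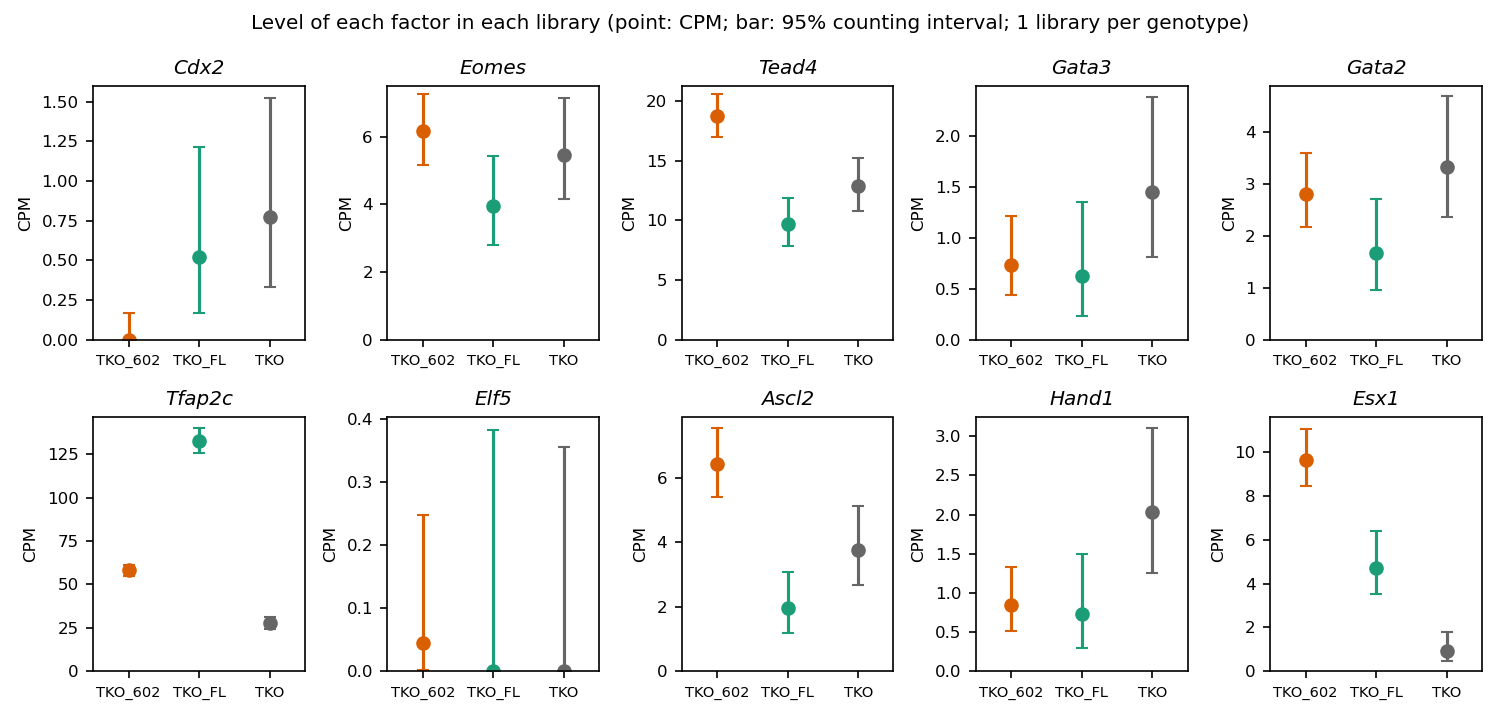
Level of each of the 10 factors (vertical axis, CPM, linear from 0, with its own scale per gene) in the TKO_602, TKO_FL and TKO libraries. Points are single libraries and bars are exact 95% counting intervals. Tfap2c peaks in TKO_FL at 133 CPM and Esx1 in TKO_602 at 9.66 CPM, while the points of Cdx2 and Elf5 stay under 1 CPM in every library.

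The promoters of 3 members are shown for their CpG content, CpG being the site that DNA methyltransferases act on. Esx1 is the member with the largest ratio between libraries, Ascl2 the imprinted one, and Elf5 the one whose promoter methylation is known as a barrier. Each stretch holds the 250 bases before an annotated start, 5′ to 3′ on the gene's strand, from RefSeq on GRCm38.p6, with each CpG in capitals. They lie at chrX:137120327-137120576 (minus strand) for Esx1, chr7:142969265-142969514 (minus strand) for Ascl2, and chr2:103411848-103412097 (plus strand) for the first of 2 starts of Elf5.
Esx1: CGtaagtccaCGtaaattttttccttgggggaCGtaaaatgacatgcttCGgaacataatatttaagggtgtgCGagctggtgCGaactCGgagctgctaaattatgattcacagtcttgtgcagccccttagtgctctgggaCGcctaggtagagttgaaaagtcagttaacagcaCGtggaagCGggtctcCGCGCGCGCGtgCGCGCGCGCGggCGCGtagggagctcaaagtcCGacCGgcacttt
Ascl2: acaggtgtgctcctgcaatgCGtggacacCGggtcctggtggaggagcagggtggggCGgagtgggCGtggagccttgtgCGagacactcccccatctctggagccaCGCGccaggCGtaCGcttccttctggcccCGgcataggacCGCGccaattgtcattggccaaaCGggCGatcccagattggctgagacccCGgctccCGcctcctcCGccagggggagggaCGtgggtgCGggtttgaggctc
Elf5: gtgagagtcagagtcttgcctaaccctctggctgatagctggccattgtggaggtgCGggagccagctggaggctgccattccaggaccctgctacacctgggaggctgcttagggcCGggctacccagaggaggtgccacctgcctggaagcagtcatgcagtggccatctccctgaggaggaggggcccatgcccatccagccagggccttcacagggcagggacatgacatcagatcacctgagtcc
The Esx1 stretch has 24 CpG, more than 88.0% of the 32851 such windows in the table. The Ascl2 stretch has 19 CpG, more than 80.3% of them, and this Elf5 stretch has 2 CpG, more than 18.8%. Over all windows the median was 6 CpG and the quartiles were 2 and 16. The second Elf5 start had 8 CpG, more than 57.0% of the windows. Which of the 2 Elf5 starts the known methylation concerns was not determined here. The starts of Gata2 had 22 and 24 CpG, Gata3 had 19, Cdx2 had 13 and Eomes had 8. In all, 7 of the 10 members matched the table, with 9 windows. Tead4, Tfap2c and Hand1 had no entry. CpG-rich and CpG-poor starts thus both occur among the members, and a link between CpG content and level was not tested. Methylation at these bases was not analysed here.

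Among the early factors, Tead4 was the best expressed. Tead4, the DNA-binding partner of YAP1 that opens the trophectoderm programme, is encoded at chr6:128227143-128300813 on the minus strand of mm10. It had 839 reads or 18.7 CPM (17.0 to 20.6) in TKO_602, 186 reads or 9.67 CPM (7.81 to 11.8) in TKO_FL, and 266 reads or 12.8 CPM (10.8 to 15.2) in TKO. The TKO_602 interval lies above the others, and those of TKO_FL and TKO overlap. On the log2(CPM + 1) scale used for every fold here, Tead4 was 0.51 higher in TKO_602 than in TKO (interval 0.25 to 0.78). It differed by -0.38 in TKO_FL against TKO (-0.74 to -0.01). Neither reached 2-fold.

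Eomes, a T-box factor needed for trophoblast development and used again in mesoderm and endoderm, lies at chr9:118478189-118486132 on the plus strand. It had 276 reads or 6.16 CPM (5.17 to 7.28) in TKO_602, 76 reads or 3.95 CPM (2.80 to 5.42) in TKO_FL, and 113 reads or 5.46 CPM (4.17 to 7.13) in TKO. The intervals overlap in every pair, and TKO_FL was lowest. Its folds were 0.15 in TKO_602 against TKO and -0.38 in TKO_FL against TKO, both with intervals that include 0. In TKO_602 against TKO_FL the fold was 0.53, and its interval (0.10 to 0.97) leaves out 0 although those of the levels overlap.

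Cdx2, the homeobox factor that drives trophectoderm fate, lies at chr5:147300900-147307249 on the minus strand. It had 0 reads in TKO_602, with a floor of 0.134 CPM and an interval that ends at 0.165 CPM. In TKO_FL it had 10 reads or 0.520 CPM (0.169 to 1.21), and in TKO 16 reads or 0.772 CPM (0.334 to 1.52). Because it never reached 1 CPM it was not among the genes compared for 2-fold differences. Taken at the floor of 6 reads, its level in TKO_602 would be 5.77-fold lower than in TKO and 3.88-fold lower than in TKO_FL. These values take the few reads of the other libraries as they are and are not lower bounds. The intervals of those libraries begin at 0.334 CPM in TKO and 0.169 CPM in TKO_FL, so smaller differences are possible. TKO_602 is the deepest of the libraries, so this 0 does not come with fewer reads overall.

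Gata3, a zinc finger factor that acts beside Cdx2, lies at chr2:9857078-9878600 on the minus strand. It had 33 reads or 0.736 CPM (0.442 to 1.21) in TKO_602, 12 reads or 0.624 CPM (0.229 to 1.36) in TKO_FL, and 30 reads or 1.45 CPM (0.811 to 2.39) in TKO. The intervals overlap in every pair. Gata2, its relative that acts in trophoblast giant cells as well as in blood formation, lies at chr6:88193891-88207032 on the plus strand. It had 126 reads or 2.81 CPM (2.16 to 3.60) in TKO_602, 32 reads or 1.66 CPM (0.951 to 2.70) in TKO_FL, and 69 reads or 3.33 CPM (2.35 to 4.70) in TKO. Its fold was -0.70 in TKO_FL against TKO (-1.31 to -0.09) and -0.18 in TKO_602 against TKO (-0.67 to 0.28).

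In the trophoblast stem cell circuit, Tfap2c and Elf5 sat at opposite ends. Tfap2c, the AP-2 gamma factor that also acts in the germ line and in naive pluripotent cells, lies at chr2:172549593-172558621 on the plus strand. It had 2600 reads or 58.0 CPM (54.9 to 61.3) in TKO_602, 2555 reads or 133 CPM (126 to 140) in TKO_FL, and 570 reads or 27.5 CPM (24.4 to 30.9) in TKO. None of these intervals overlap. Its CPM in TKO_FL was 4.83 times that in TKO (4.24 to 5.51), a log2 fold of 2.23 (2.05 to 2.42). Its CPM in TKO_602 was 2.11 times that in TKO (1.85 to 2.40), a log2 fold of 1.05 (0.87 to 1.23), whose interval reaches under the 2-fold line. With a pseudocount of 5 in place of 1 the TKO_602 fold was 0.95. TKO_602 was lower than TKO_FL by a log2 fold of -1.18 (-1.29 to -1.07). Elf5, an ETS factor of trophoblast stem cells, lies at chr2:103412098-103450988 on the plus strand. It had 2 reads in TKO_602, 0 in TKO_FL and 0 in TKO, all at or under the floor, so no fold is given and expression was not detectable at this depth.

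Of the factors of later placental lineages, Esx1 had the largest ratio. Esx1, an X-linked homeobox factor of the labyrinth layer and of male germ cells, lies at chrX:137115397-137120326 on the minus strand. It had 433 reads or 9.66 CPM (8.44 to 11.1) in TKO_602, 91 reads or 4.73 CPM (3.50 to 6.38) in TKO_FL, and 19 reads or 0.917 CPM (0.463 to 1.78) in TKO. The intervals of the 3 libraries are all apart. The ratio of CPM was 10.5 in TKO_602 against TKO (5.35 to 21.2) and 5.16 in TKO_FL against TKO (2.47 to 11.0). The log2 folds, which the pseudocount of 1 draws in at these levels, were 2.48 (1.91 to 2.89) and 1.58 (0.93 to 2.09) for the same pairs.

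Ascl2, an imprinted basic helix-loop-helix factor that keeps up the spongiotrophoblast and is expressed from the maternal allele, lies at chr7:142966822-142969264 on the minus strand. It had 288 reads or 6.43 CPM (5.42 to 7.57) in TKO_602, 38 reads or 1.98 CPM (1.19 to 3.09) in TKO_FL, and 78 reads or 3.77 CPM (2.68 to 5.15) in TKO. The TKO_602 interval lies above both others, which overlap. Its log2 fold was 0.64 in TKO_602 against TKO (0.21 to 1.07), -0.68 in TKO_FL against TKO (-1.26 to -0.08) and 1.32 in TKO_602 against TKO_FL (0.81 to 1.81). With a pseudocount of 5 that last fold was 0.71, under 2-fold. Alleles were not separated in these counts.

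Hand1, a basic helix-loop-helix factor of trophoblast giant cells that also acts in extraembryonic mesoderm and heart, lies at chr11:57828713-57832147 on the minus strand. It had 38 reads or 0.848 CPM (0.510 to 1.32) in TKO_602, 14 reads or 0.728 CPM (0.293 to 1.50) in TKO_FL, and 42 reads or 2.03 CPM (1.26 to 3.10) in TKO. TKO was the highest of the 3, and its interval overlaps those of both others. The log2 folds were -0.71 in TKO_602 against TKO (-1.22 to -0.16) and -0.81 in TKO_FL against TKO (-1.38 to -0.11). In the annotation of the count table no gene overlaps any of the 10 members, so reads of an annotated antisense or overlapping gene do not enter these counts.

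Compared per kilobase of exonic length (RPKM), a scale that allows levels of different genes to be set side by side, Tfap2c led in every library. It had 18.9 RPKM in TKO_602, 43.3 RPKM in TKO_FL and 8.97 RPKM in TKO, a level above 83.5%, 92.2% and 73.8% of genes of at least 200 bases in those libraries. In TKO_602, Tead4 (6.09 RPKM) and Esx1 (6.04 RPKM) came next with overlapping intervals, then Ascl2 (3.99 RPKM) and Eomes (1.66 RPKM), each apart from its neighbours. Gata2, Hand1 and Gata3 followed at 0.838, 0.447 and 0.229 RPKM, and Elf5 and Cdx2 came last. In TKO_FL, Tead4 (3.14 RPKM) and Esx1 (2.96 RPKM) again overlapped, and below them lay Ascl2 (1.23 RPKM) and Eomes (1.06 RPKM), followed by the rest. From Ascl2 downwards in TKO_FL no neighbour in the order was apart from the next. In TKO the order was Tfap2c, Tead4 (4.18 RPKM), Ascl2 (2.34 RPKM), Eomes (1.47 RPKM), Hand1 (1.07 RPKM) and Gata2 (0.994 RPKM), with Esx1 only the seventh at 0.573 RPKM. Of the 9 pairs of neighbours in the order, 5 were apart beyond their counting intervals in TKO_602, 2 in TKO_FL and 2 in TKO.

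Of the comparisons made, TKO_FL against TKO had the smallest share of all genes past 2-fold, and the members went both ways. Of the 10 members, 8 had at least 1 CPM in TKO_FL or TKO, and Cdx2 and Elf5 did not. Of these 8, 2 passed 2-fold upwards in TKO_FL (Tfap2c and Esx1) and 0 downwards. Over all 13563 genes compared, 3.24% passed it upwards and 2.5% downwards, 5.74% in all. The other 6 members all had folds under 0, between -0.81 (Hand1) and -0.38, so the median of the members was -0.49, against 0.00 over all genes. A member passes the minimum of 1 CPM through either library, so these counts leave out the members that both libraries lack. Gata3 and Hand1 reached that minimum only in TKO and Esx1 only in TKO_FL, which fixed the sign of their folds in advance. The counts and the median of the members include these folds. Tfap2c had a higher fold than 99.96% of all genes compared and Esx1 than 99.5%. The members were chosen with earlier results of these data known, so such ranks only describe them, here and below. The deposited TPM table, from which whole fragments could be recovered, held 1337 fragments of Tfap2c in TKO_FL and 293 in TKO, and 49 and 10 fragments of Esx1 in the same libraries.

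More genes differed between TKO_602 and TKO, and the members again lay on both sides of 0. Of the 8 compared, 2 passed 2-fold upwards in TKO_602 (Esx1 and Tfap2c) and 0 downwards. Over all 13748 genes, 11.0% passed it upwards and 8.06% downwards, 19.0% in all. The median of the members was 0.33 and that of all genes was 0.03. The fold of Esx1 was above that of 99.5% of genes and the fold of Tfap2c above that of 89.9%. This comparison shares the TKO library with the previous one, so Tfap2c and Esx1, being low in that library, weigh on both. Gata3 and Hand1 again reached 1 CPM only in TKO, and Esx1 only in TKO_602, so the sign of their folds was fixed in advance here too.

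Between TKO_602 and TKO_FL, 6 members could be compared, since Gata3 and Hand1 were also under 1 CPM in both. Ascl2 was at least 2-fold higher in TKO_602 and Tfap2c at least 2-fold lower, against 6.75% and 4.87% of 13683 genes, 11.6% in all. Esx1 (0.90, 0.49 to 1.29), Tead4 (0.89, 0.59 to 1.20), Eomes (0.53, 0.10 to 0.97) and Gata2 (0.52, -0.04 to 1.04) also had folds above 0. Tfap2c was thus the one member of these 6 with a lower level in TKO_602 than in TKO_FL. The median of the 6 was 0.71, against 0.03 over all genes.

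**Figure D2:**
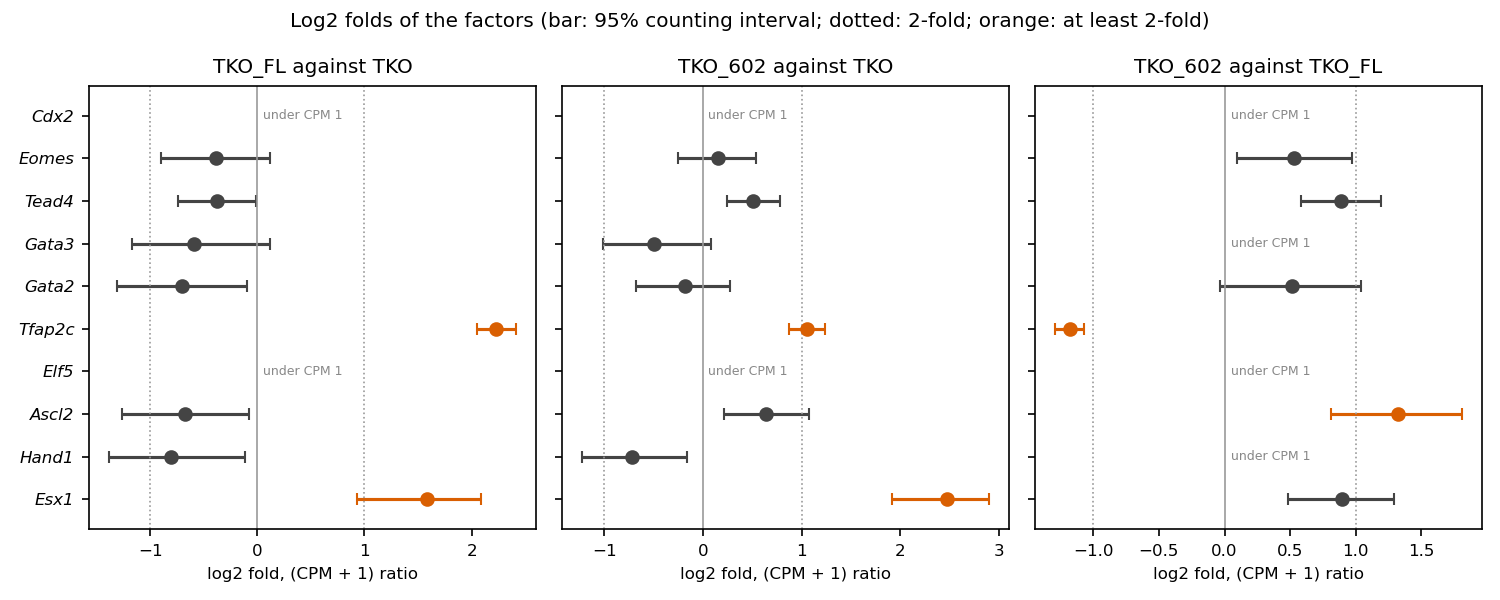
Log2 fold of (CPM + 1) for each factor (horizontal axis) in TKO_FL against TKO, TKO_602 against TKO and TKO_602 against TKO_FL. Points are folds between single libraries, bars are 95% counting intervals, dotted lines mark 2-fold, and orange marks members past it: Tfap2c and Esx1 in both comparisons with TKO, Tfap2c and Ascl2 between TKO_602 and TKO_FL.

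**Figure D3:**
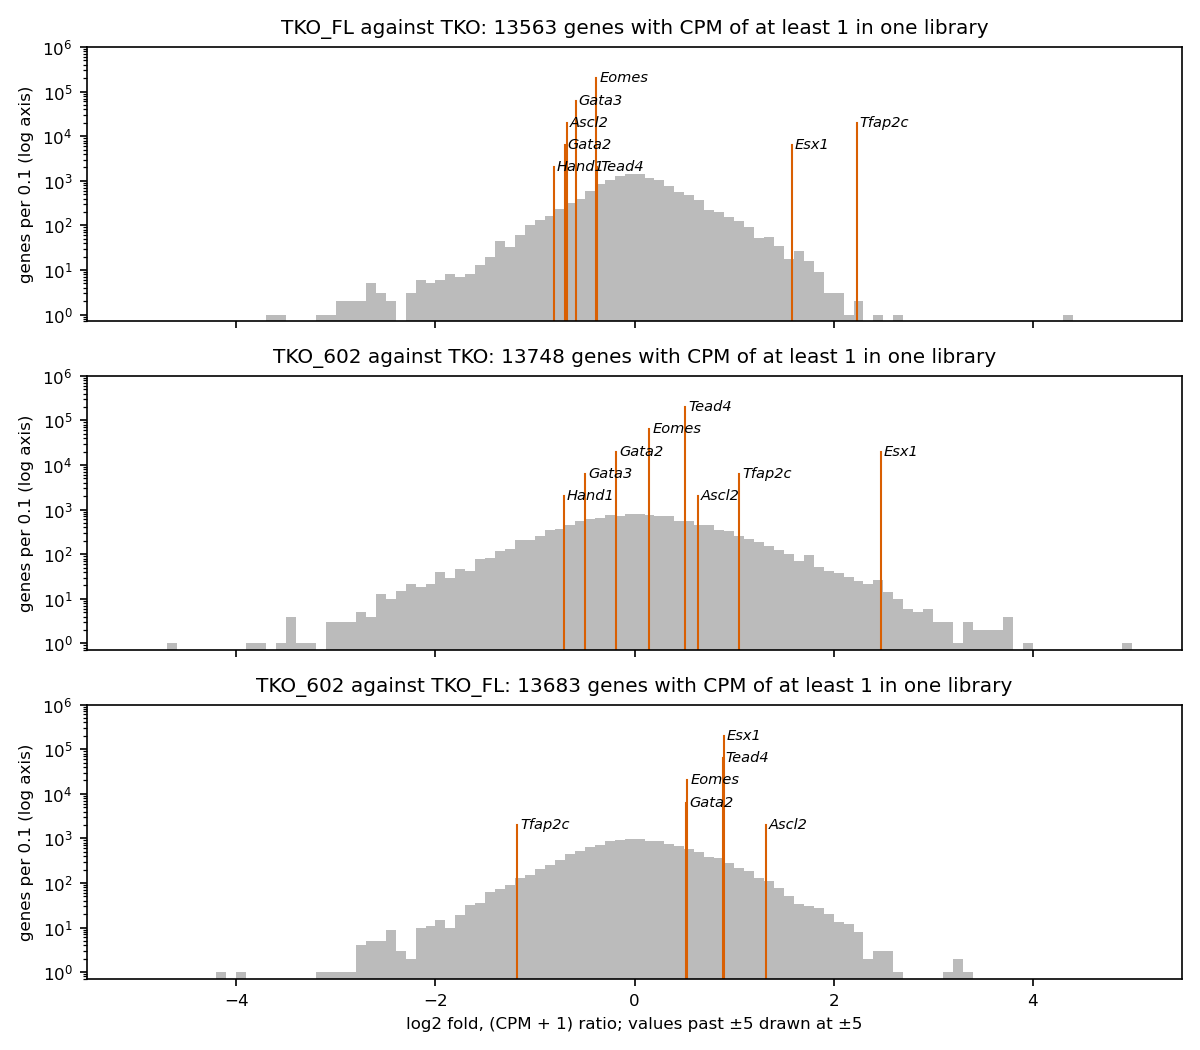
Folds of the members (orange lines) within the distribution of all genes with at least 1 CPM in a library (grey bars, number of genes per 0.1 of log2 fold, log axis), for the same 3 comparisons. The grey distribution is narrowest in TKO_FL against TKO, where Tfap2c at 2.23 lies in its outer tail, and wider in both comparisons of TKO_602.

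Markers of other cell types also differed between the libraries. Over all genes compared, 2.5% were at least 2-fold lower in TKO_FL than in TKO, and 8.06% in TKO_602 than in TKO. Summed markers of primitive endoderm, the embryo's other extraembryonic lineage (13 genes), were 905 CPM in TKO_602, 496 CPM in TKO_FL and 2501 CPM in TKO, and none was at 0. Most of the sum in TKO came from the basement membrane genes Lama1 (647 CPM), Col4a1 (609 CPM), Lamb1 (565 CPM) and Col4a2 (297 CPM). All 13 were at least 2-fold lower in TKO_FL than in TKO, with a median fold of -2.63, and 11 of 13 were in TKO_602, with a median of -1.62. Fibroblast feeder markers (13 genes) summed to 466 CPM in TKO_602, 315 CPM in TKO_FL and 581 CPM in TKO. Of the 12 feeder markers compared, 5 were at least 2-fold lower in TKO_FL than in TKO and 4 in TKO_602, with medians of -0.67 and -0.29. Gata2, Gata3 and Hand1 also had their highest CPM in TKO, and the part of primitive endoderm or feeder RNA in that was not tested. Tfap2c and Esx1 ran the other way, with their lowest CPM in TKO. Eomes and Hand1 are also used in mesoderm, whose markers (8 genes) summed to 5.60 CPM in TKO_602, 8.22 CPM in TKO_FL and 10.1 CPM in TKO, with most of them under 1 CPM. Kdr alone, a receptor also found on endothelium, had 0.982 CPM in TKO_602, 6.03 CPM in TKO_FL and 7.48 CPM in TKO, and the other 7 summed to 4.62, 2.18 and 2.66 CPM, highest in TKO_602. In bulk RNA, fewer cells of a type and less RNA per cell cannot be told apart.

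Relatives of the members did not repeat the pattern of Tfap2c. Of the TFAP2 family, Tfap2a had 1.92 CPM in TKO_602, 3.33 CPM in TKO_FL and 2.70 CPM in TKO, and Tfap2e had 1.96, 1.04 and 1.01 CPM, none at least 2-fold apart. Per length, Tfap2a reached 0.492, 0.853 and 0.693 RPKM in those libraries, far under Tfap2c. Of the GATA family, the endoderm factors Gata6 and Gata4 were the ones past 2-fold. Gata6 had 10.0 CPM in TKO_602, 1.56 CPM in TKO_FL and 21.7 CPM in TKO, and Gata4 had 10.8, 4.84 and 35.2 CPM. Both belong to the primitive endoderm markers above, and both were lowest in TKO_FL.

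Among the relatives of Cdx2, Hand1, Elf5, Eomes and Ascl2, 6 of 14 were compared. Over all genes compared, 3.24% passed 2-fold upwards and 2.5% downwards in TKO_FL against TKO. The shares were 11.0% and 8.06% in TKO_602 against TKO, and 6.75% and 4.87% in TKO_602 against TKO_FL. They stand beside the counts of this list and of those below. In TKO_FL against TKO, 1 of the 6 passed 2-fold, Cdx1, and 0 did with Cdx1 taken at its floor in TKO. Cdx1, singled out here after its values were seen, had 84 reads in TKO_602, 20 in TKO_FL and 0 in TKO. Taken at the floor of 0.290 CPM in TKO, it would be 6.47-fold higher in TKO_602 and 3.59-fold higher in TKO_FL, each against TKO. These are not lower bounds, since the interval of 0 reads in TKO ends at 0.356 CPM and the counting error of the other libraries is left out. Elf4, an ETS factor of lymphoid cells, had 29.6 CPM in TKO_602, 13.4 CPM in TKO_FL and 10.0 CPM in TKO. Tbx3, a T-box factor of naive pluripotency, had 112, 49.4 and 50.7 CPM in that order. Elf3, an epithelial ETS factor, had 76.6, 31.6 and 41.3 CPM, and its 38.3, 15.8 and 20.6 RPKM contrast with the floor level of Elf5. Of the 6, 3 passed 2-fold upwards in TKO_602 against TKO, and 3 against TKO_FL. Those past it against TKO include Cdx1, whose 0 reads in TKO fixed the sign of its fold in advance.

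Tead4 shares its partner YAP1 with other TEAD factors, of which Tead2 and Tead1 were above Tead4 and Tead3 below it. Per length, Tead2 had 66.8 RPKM in TKO_602, 48.1 RPKM in TKO_FL and 43.6 RPKM in TKO. Tead1 had 14.1, 19.9 and 13.7 RPKM and Tead3 2.88, 2.41 and 3.28 RPKM in the same libraries. Tead4, with 6.09, 3.14 and 4.18 RPKM, lay between Tead1 and Tead3 in each. Of the 20 genes of the TEAD partner and Hippo pathway list, all were compared, and 0 were at least 2-fold higher and 1 lower in TKO_FL against TKO. That gene was Amot, which holds YAP1 in the cytoplasm, with 11.9 CPM in TKO_602, 11.0 CPM in TKO_FL and 43.5 CPM in TKO. The TKO_602 library against TKO had 1 higher (Amotl1, 72.9 against 34.5 CPM) and 1 lower (Amot). The list's median was 0.13 in TKO_FL against TKO and 0.10 in TKO_602 against TKO.

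Further trophoblast regulators were compared in a list of 18 genes. In TKO_FL against TKO, 15 were compared, 0 were at least 2-fold higher and 3 lower, with a median of -0.33. Ets2, which keeps trophoblast stem cells self-renewing, had 44.8 CPM in TKO_602, 14.0 CPM in TKO_FL and 34.0 CPM in TKO. TKO_FL was its low point, as it was for Tead4, Ascl2, Eomes, Gata2, Gata3 and Hand1. Against TKO, 14 were compared in TKO_602, 1 was higher and 1 lower, with a median of -0.24. Arid3a, a factor of trophectoderm commitment, had 50.0 CPM in TKO_602 against 23.3 CPM in TKO, and Cited2, a placental co-regulator, had 42.1 against 85.9 CPM. Between TKO_602 and TKO_FL, Id2 (7.45 against 21.3 CPM) and Sox21 (11.5 against 30.3 CPM) were lower and Ets2 was higher.

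Genes that mark differentiated trophoblast gave no uniform picture. Of 22 structural and secreted markers, 11 were compared in each comparison. In TKO_FL against TKO, 0 were at least 2-fold higher and 1 lower, the keratin Krt8, with 15.7 against 45.8 CPM and a list median of 0.01. For TKO_602 against TKO the counts were 2 higher and 1 lower, with a median of -0.46. Krt7, a keratin of trophoblast and simple epithelia, had 11.0 CPM in TKO_602, 1.98 CPM in TKO_FL and 0.917 CPM in TKO, an order of libraries that Esx1 shared. Krt18, the keratin partner of Krt8, had 46.9, 23.3 and 21.5 CPM in that order, and Nrk, a kinase of the placenta, had 2.77, 7.38 and 7.34 CPM. The placental genes Tpbpa, Tpbpb, Prl3b1, Synb and Ctsq had 0 reads in all 3 libraries, under the floor in each.

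Signalling genes on which trophoblast stem cells depend (13 genes, all compared) included Fgfr2, the receptor for FGF4 in the trophectoderm. Fgfr2 had 5.76 CPM in TKO_602, 37.0 CPM in TKO_FL and 13.8 CPM in TKO, highest in TKO_FL as Tfap2c was, but lower in TKO_602 than in TKO. It was the 1 gene of the list past 2-fold in TKO_FL against TKO. In TKO_602 against TKO, 1 was higher, Notch1 (128 against 61.3 CPM), and 3 were lower: Inhba, an activin subunit (8.46 against 43.7 CPM), Fgfr2 and Bmp4 (9.51 against 20.1 CPM). The list medians were 0.18 in TKO_FL and -0.10 in TKO_602, each against TKO. Of 8 factors that hold trophoblast genes down in embryonic stem cells, 0 were past 2-fold in TKO_FL against TKO. In TKO_602 against TKO, 1 was lower, Trim28, a co-repressor of zinc finger proteins, with 1101 CPM in TKO_602, 1753 CPM in TKO_FL and 2337 CPM in TKO.

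Tfap2c is also a germ cell gene, so 9 genes of germ cell specification were compared. In TKO_FL against TKO, 0 were at least 2-fold higher or lower, and the median was -0.02. The TKO_602 library had 1 higher than TKO, the receptor Kit (141 against 51.6 CPM), and 1 lower, the RNA-binding protein Lin28a (199.7 against 503 CPM), with a median of 0.69. Over all 13563 genes, 5.74% were at least 2-fold apart in TKO_FL against TKO, so 0 of 9 is near that share. Whether the Tfap2c difference relates to germ cell genes was not tested.

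**Figure D4:**
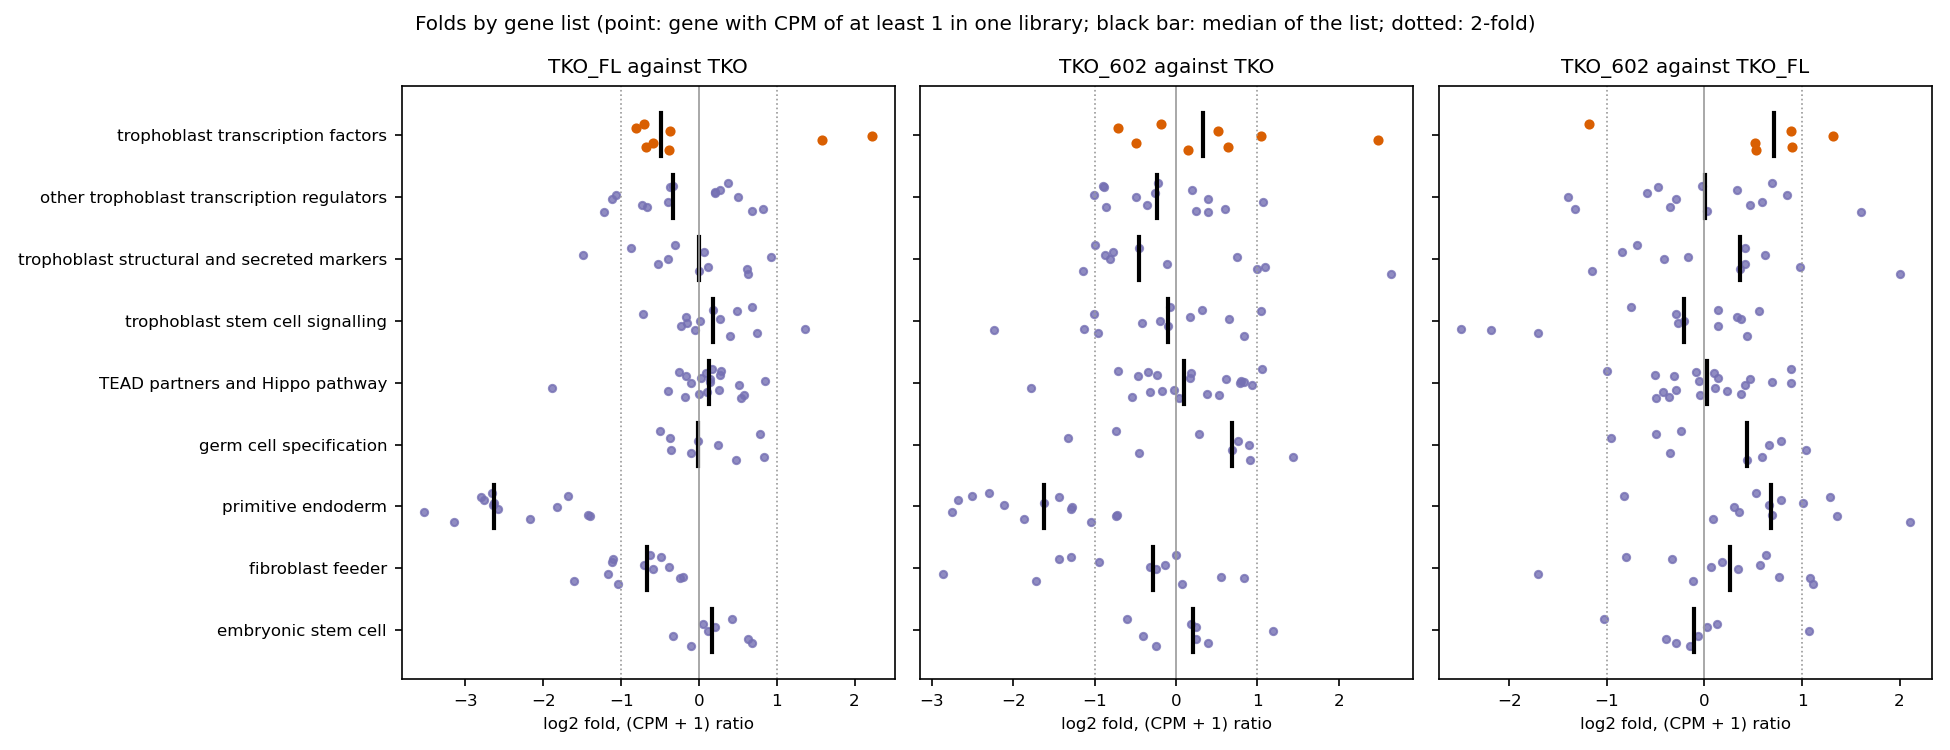
Log2 folds of (CPM + 1) by gene list (rows) in TKO_FL against TKO, TKO_602 against TKO and TKO_602 against TKO_FL. Each point is a gene with at least 1 CPM in one of the libraries compared, black bars are list medians and dotted lines mark 2-fold. Of the lists drawn, primitive endoderm has the lowest median in both comparisons with TKO (-2.63 and -1.62), while the trophoblast lists straddle 0.

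The genes around the 3 members past 2-fold in a comparison were read for shared position. Within 250 kb of Tfap2c, 5 genes had at least 1 CPM in a library (Fam210b, Aurka, Cstf1, Cass4 and Rtf2), and their folds in TKO_FL against TKO ran only from -0.13 to 0.28. In TKO_602 against TKO, Cass4 was the one past 2-fold, with 0.692 CPM in TKO_602 against 3.48 CPM in TKO. Cass4 was also past 2-fold downwards in TKO_602 against TKO_FL (4.42 CPM in TKO_FL), where Tfap2c was lower too. It was under 1 CPM in TKO_602, which fixed the sign of both folds in advance. Around Esx1, 3 genes qualified, and 2 of them passed 2-fold upwards in TKO_602 against TKO, against 11.0% of all genes compared. A link of these folds to position was not tested. Zcchc18 had 3.59 CPM in TKO_602, 1.92 CPM in TKO_FL and 0.772 CPM in TKO, and Fam199x had 17.8, 11.8 and 7.34 CPM, the same order of libraries as Esx1. The third, Slc25a53, had 0.781, 2.24 and 1.40 CPM. In TKO_602 against TKO, Zcchc18 reached 1 CPM only in TKO_602 and Slc25a53 only in TKO, which fixed the sign of their folds in advance. Around Ascl2, in a cluster of imprinted genes, 5 qualified (Tspan32, R74862, Cd81, Tssc4 and Kcnq1ot1), and none was 2-fold apart in any comparison. In TKO_602 against TKO_FL, where Ascl2 was at 1.32, their folds ran from -0.23 (Tssc4) to 0.73 (Kcnq1ot1). Near the remaining members, Lnx2 beside Cdx2 was at least 2-fold lower in TKO_FL than in TKO (11.1 against 23.4 CPM). In TKO_602 against TKO, Itga9 near Eomes was lower (8.46 against 26.4 CPM), and 9330102E08Rik near Tead4 (6.56 against 0.531 CPM) and Abtb2 near Elf5 (15.3 against 6.81 CPM) were higher.

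**Figure D5:**
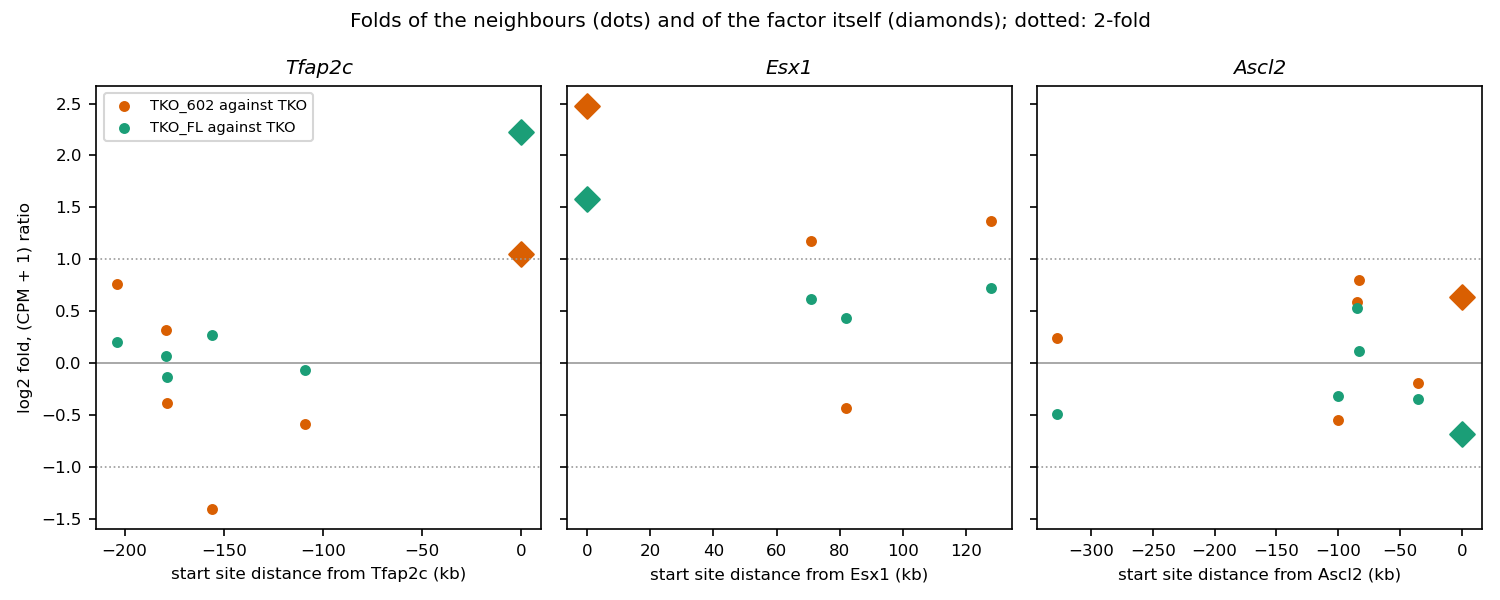
Log2 folds of (CPM + 1) against TKO for the genes within 250 kb of Tfap2c, Esx1 and Ascl2 (dots), by the distance of their start site from that of the member (horizontal axis, kb), with the member itself as a diamond at 0. Orange is TKO_602 and green TKO_FL. All 5 neighbours of Tfap2c lie between -0.13 and 0.28 in TKO_FL, far under Tfap2c at 2.23.

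Genes with the most similar pair of folds against TKO were sought for the 3 members with at least 5 CPM in a library and a range of at least 1 on the log2 scale. Likeness was the Euclidean distance between the pairs of log2 folds (TKO_602 and TKO_FL, each against TKO) over a pool of 10972 genes, and it rests on 3 libraries. Nearest to Tfap2c were Ddx60 (distance 0.26), Scml2, Bach2, Efnb3 and Cpeb1 (0.59). Scml2 had 62.9 CPM in TKO_602, 109 CPM in TKO_FL and 29.6 CPM in TKO. Nearest to Esx1 were Tjp3 (0.05), Trank1, Usp43, Katnal2 and Stra8 (0.13). Stra8, a meiosis gene of the germ line, had 30.9, 18.3 and 4.97 CPM in that order of libraries. Nearest to Ascl2 were Rhobtb2, Mymx, Trit1, Fam102a and Prkd2, all at distances near 0.06. The distances of these nearest genes were larger for Tfap2c than for Esx1 and Ascl2. How many genes lay within a given distance of a member was not counted.

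RLTR13D5, a retroviral repeat known as an enhancer bound by Cdx2, Eomes and Elf5 in trophoblast stem cells, was looked up in the deposited repeat table. Its 135 features summed to 3.22 TPM in TKO_FL and 2.25 TPM in TKO, with signal in 8 features of each library, a ratio of 1.43 that rests on those few features. Other repeats of the RLTR13 group had a ratio of 1.01, and all ERVK repeats together 0.914. TKO_602 has no column matched to it in that table.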

How the data were processed

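Poly(A)-selected RNA from 3 libraries was analysed. Counts are the authors' deposited reads per gene: per the file headers, featureCounts 2.0.6 was run in paired mode on the refGene annotation of mm10, with no strand option, and each mate was counted alone. The submitters' processing notes also name Trim Galore, HISAT2, SAMtools and Subread, with no roles. The authors also deposited a gene signal table named TPM for TKO_FL and TKO, whose columns sum to 10000000. It was divided by 10 and multiplied by exonic length, which gave whole fragments for 100% of values, and a repeat signal table was divided likewise. In each table, 11 further library columns have names that fit no sample here and were left aside.

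Counts were scaled to CPM with TMM factors (1.04 for TKO_602, 0.983 for TKO_FL and 0.980 for TKO) from edgeR 4.0.16 in R 4.3.3. Folds and intervals used scipy 1.17.1, pandas 2.3.3 and numpy 2.4.6 under Python 3.11.15. Log2 folds are of CPM plus 1, among genes with at least 1 CPM in one library of the pair, and 2-fold is the threshold. Ratios have exact 95% binomial intervals and levels exact Poisson intervals, both from reads divided by 2. PCR copies are not independent molecules, so intervals and floors cover counting error only. Each genotype has 1 library, so no test across libraries was run.

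The members and gene lists were chosen with earlier results of these data known. Named genes are the members, up to 4 genes per list and comparison with the largest folds past 2-fold and at least 5 CPM, neighbours within 250 kb, and the 5 genes most like a member (at least 5 CPM, at least 200 exonic bases). The text gives a selection of these, and other names are relatives of a member, genes at 0, or the complete lists of neighbours, named after their values were seen. The fold and interval steps were tested on simulated data. The alternatives tried were library totals only, median-of-ratios factors from DESeq2 1.42.0, other pseudocounts and filters, a minimum exonic length, the deposited TPM, and, added after seeing the data, TMM factors without TKO_602. The immunoprecipitation samples were not analysed here.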

Additional observations from a re-analysis of the deposited data

How the results depend on the processing

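Of 160 alternative values of member folds, all kept their sign. Filters and the minimum exonic length leave a fold as it is, and another pseudocount cannot change its sign. Many of these outcomes were thus fixed in advance. Of the 160, 155 stayed within the counting interval of the reported fold, which is wide for low genes, and 5 left it. Those were Esx1 in TKO_602 against TKO (3.26 with a pseudocount of 0.1 and 1.31 with 5), Esx1 in TKO_FL against TKO (2.25 and 0.72), and Ascl2 in TKO_602 against TKO_FL (0.71 with 5). Within their intervals, some folds still crossed the 2-fold line with a pseudocount of 0.1: Gata3 (-1.10) and Hand1 (-1.36) in TKO_FL against TKO, Hand1 (-1.17) in TKO_602 against TKO, and Esx1 (1.01) in TKO_602 against TKO_FL. Tfap2c in TKO_602 against TKO crossed it with a pseudocount of 5 (0.95). The pseudocount sets how far low levels are drawn together, so it also moved the counts. With a pseudocount of 5, members at least 2-fold higher numbered 1 in TKO_FL against TKO, 1 in TKO_602 against TKO and 0 in TKO_602 against TKO_FL, and a minimum of 5 CPM also left 1 in TKO_FL against TKO, since Esx1 is then not compared. With a pseudocount of 0.1, 2 members passed 2-fold downwards in TKO_FL against TKO, 1 did so in TKO_602 against TKO, and 2 passed it upwards in TKO_602 against TKO_FL. Over all genes, a pseudocount of 5 gave 97 higher and 78 lower in TKO_FL against TKO, 695 and 517 in TKO_602 against TKO, and 344 and 274 in TKO_602 against TKO_FL. A pseudocount of 0.1 gave 816 higher and 658 lower of 13563 genes in TKO_FL against TKO, 2002 and 1470 of 13748 in TKO_602 against TKO, and 1361 and 1023 of 13683 in TKO_602 against TKO_FL. Without TMM factors the median of all genes was 0.12 in TKO_602 against TKO and 0.11 in TKO_602 against TKO_FL. No paired analysis was possible because each genotype has 1 library. Low counts limit Cdx2, Elf5, Gata3 and Hand1, for which only large differences could be seen at this depth.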
